A study of Mus musculus with 8 samples.

Results

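The triad is the junction of skeletal muscle at which the transverse tubule, an infolding of the surface membrane, lies against the terminal cisternae of the sarcoplasmic reticulum (SR), the Ca2+ store of the fiber. In excitation-contraction coupling (ECC), the voltage-gated dihydropyridine receptor of the tubule opens the ryanodine receptor of the SR by mechanical contact, and Ca2+ flows out of the store and starts contraction. Junctophilins hold both membranes together, an adaptor protein links both channels, and triadin anchors the Ca2+-binding proteins of the store to the release channel. STIM1 is the Ca2+ sensor of the same store, and opens Ca2+ entry channels of the surface membrane when the store runs low.

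The transcripts of 10 genes of this machinery, chosen by name, were followed among the 15433 genes listed in RNA-Seq data of gastrocnemius (GST) muscle. They are the ryanodine receptors Ryr1 and Ryr3, the dihydropyridine receptor subunits Cacna1s, Cacna2d1, Cacnb1 and Cacng1, the adaptor Stac3, the junctophilins Jph1 and Jph2, and triadin (Trdn). All 10 were listed. The groups were 4 WT mice, which were C57BL/6 animals of matched age and sex, and 4 STIM1+/D84G mice, all female and 6 months old, with 1 library per mouse. The labels call the STIM1+/D84G libraries Sax, which the series title places in STIM1+/D84G mice. STIM1+/D84G mice carry on 1 of their Stim1 alleles an A-to-G change in exon 2 that alters the EF hand of STIM1, in every tissue and not in muscle alone. The libraries are named here WT 1 to WT 4 and D84G 1 to D84G 4.

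Each library held between 27481177 and 35018732 reads in listed genes, and values are normalized counts, which are reads divided by 1 size factor per library. The 50 most abundant genes took 51.2% to 52.0% of the counts in WT and 42.4% to 44.9% in STIM1+/D84G libraries, and the normalized totals were 33536636 to 34589111 and 26080391 to 27436601. Muscle transcripts were abundant in all 8 libraries, with 3524000 to 3673600 counts over 6 skeletal muscle markers in WT and 2381400 to 2599600 in STIM1+/D84G muscle. Stim1 counted 7293 ± 167 in WT and 5413 ± 264 in STIM1+/D84G muscle (SD, n = 4 each), a level that does not check the genotype, which differs by a single base. Xist counted 1989 in WT 4 and 5152 to 6441 in the other libraries.

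To show the DNA at the start of genes, promoter windows are printed for Ryr1, Cacna1s and Jph2, whose transcripts fell. They are also printed for both annotated starts of Cacnb1. Its transcript did not pass the test with the scaling of the deposited counts, but passed as higher under 3 other scalings. The windows of both kinds of gene are laid out alike. Each runs from 250 bases before to 50 bases after the start, 5′ to 3′ on the strand of the gene, as RefSeq gives it on GRCm38.p6. Capitals mark E-boxes (CANNTG), the short motif that the myogenic MyoD family and other basic helix-loop-helix factors bind.
Ryr1 promoter, chr7:29125102-29125401, minus strand: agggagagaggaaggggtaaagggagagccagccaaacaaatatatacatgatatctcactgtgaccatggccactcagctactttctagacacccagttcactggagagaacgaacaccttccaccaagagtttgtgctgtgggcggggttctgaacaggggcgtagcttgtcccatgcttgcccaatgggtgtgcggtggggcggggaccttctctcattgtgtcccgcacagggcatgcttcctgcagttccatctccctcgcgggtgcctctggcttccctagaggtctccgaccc
Cacna1s promoter, chr1:136052561-136052860, plus strand: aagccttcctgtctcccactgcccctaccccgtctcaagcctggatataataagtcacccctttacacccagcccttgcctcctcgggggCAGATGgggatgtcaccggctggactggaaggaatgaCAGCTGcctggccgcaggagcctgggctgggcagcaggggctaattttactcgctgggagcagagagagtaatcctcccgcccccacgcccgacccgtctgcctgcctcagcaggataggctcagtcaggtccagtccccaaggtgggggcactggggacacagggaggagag
Jph2 promoter, chr2:163397944-163398243, minus strand: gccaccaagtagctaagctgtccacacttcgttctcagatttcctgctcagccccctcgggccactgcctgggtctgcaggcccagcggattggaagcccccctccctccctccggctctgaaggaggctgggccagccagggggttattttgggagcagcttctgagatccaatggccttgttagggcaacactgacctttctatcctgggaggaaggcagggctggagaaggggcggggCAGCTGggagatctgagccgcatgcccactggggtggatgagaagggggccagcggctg
Cacnb1 promoter at the first start, chr11:98022578-98022877, minus strand: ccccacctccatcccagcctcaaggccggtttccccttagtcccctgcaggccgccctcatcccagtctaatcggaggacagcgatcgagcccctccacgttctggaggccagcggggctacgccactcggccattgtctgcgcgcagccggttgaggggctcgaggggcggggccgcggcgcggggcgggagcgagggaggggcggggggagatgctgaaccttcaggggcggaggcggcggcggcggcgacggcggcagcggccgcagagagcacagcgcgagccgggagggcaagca
Cacnb1 promoter at the second start, chr11:98018323-98018622, minus strand: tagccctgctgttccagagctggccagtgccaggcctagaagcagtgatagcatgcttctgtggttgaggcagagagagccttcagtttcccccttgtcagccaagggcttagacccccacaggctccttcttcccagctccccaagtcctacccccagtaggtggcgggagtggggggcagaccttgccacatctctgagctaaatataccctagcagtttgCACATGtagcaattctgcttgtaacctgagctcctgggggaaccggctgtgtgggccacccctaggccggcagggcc

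The Cacna1s window held an E-box at position -160 and another, CAGCTG, at position -123 relative to the start, and the Jph2 window held CAGCTG at position -9. The Ryr1 window and the first Cacnb1 window held none, and the second Cacnb1 window held CACATG at position -27. Promoters were found for 5 of the 10 genes, in 7 windows. The pair of Jph2 windows overlap and hold the same CAGCTG, so 1 site counts for both windows. An E-box lay in 4 of the 7 windows, against 72.3% of 32534 mouse promoter windows of the same length, and CAGCTG, which is 1 form of the E-box, lay in 3 of 7, against 16.4%. CANNTG and CAGCTG read the same on both strands. The MEF2 motif, searched on both strands, lay in 0 of 7 windows, against 3.16%. GC content was 56.67% for Ryr1, 63.0% for Cacna1s, 63.0% for Jph2, 73.67% and 59.33% for the first and second start of Cacnb1 and 80.0% for Cacna2d1, whose window held no E-box, against a median of 53.0%. The genes that fell thus included windows with and without an E-box, and these matches are descriptions of the sequence alone.

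Of the 10 triad genes, 8 were lower in STIM1+/D84G muscle, 1, Ryr3, was higher, and 1, Cacnb1, did not pass the test. Ryr1, Cacna1s, Cacna2d1, Jph2, Stac3, Trdn and Jph1 lay below every WT library in every STIM1+/D84G library, Ryr3 lay above every WT library, and Cacng1 and Cacnb1 overlapped between the groups. The median log2 fold change of the 10 was -0.56, against 0.01 over all 15433 genes. Each gene was tested with limma on log2(normalized count + 0.1), with Benjamini-Hochberg adjustment over all genes and a threshold of 0.05. Over all genes, 24.4% were lower and 25.0% higher by this test, and 23.0% lay below and 23.0% above WT without overlap. Among the 632 genes with a mean of at least 5000, a limit chosen after the values were seen, 63.4% were lower and 13.8% higher, with a median log2 fold change of -0.27. Of the 10 triad genes, 9 pass that limit, all but Ryr3, and the 8 that fell are among them.

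**Figure D1:**
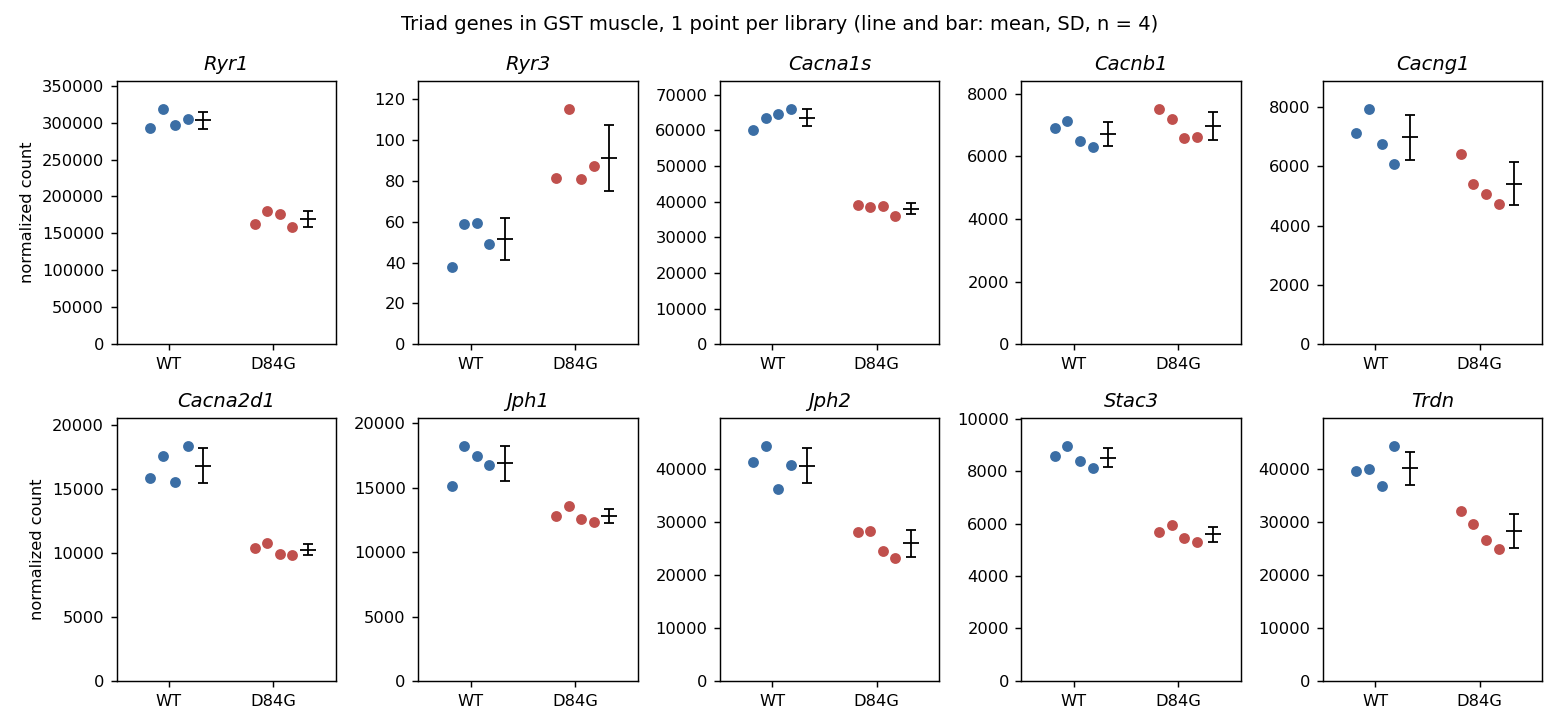
Normalized counts of the 10 triad genes on the vertical axes, which start at 0, by genotype, with 1 point per library and the mean with its SD (n = 4) beside the points. Every STIM1+/D84G point lies below every WT point for Ryr1, Cacna1s, Cacna2d1, Jph1, Jph2, Stac3 and Trdn, above for Ryr3, and the groups overlap for Cacnb1 and Cacng1.

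Ryr1 encodes the SR Ca2+ release channel of skeletal muscle (chr7:29003344-29125179, minus strand, mm10), and ranked 20 among all genes by mean count. It counted 292481, 318140, 296721 and 304629 in WT 1 to WT 4 and 163368, 180443, 176132 and 158116 in D84G 1 to D84G 4. All STIM1+/D84G libraries were below all WT libraries. The mean fell from 302992 ± 11284 (SD, n = 4) to 169515 ± 10503 (SD, n = 4), to 55.95% of WT, a log2 fold change of -0.84 ± 0.07 (SE; limma, adjusted p = 6.17e-06). Ryr1 alone was 60.19% ± 0.494 of the counts of the 10 genes in WT and 55.93% ± 1.75 in STIM1+/D84G muscle (SD, n = 4). These counts are of RNA, and the paper reports no change of RYR1, STIM1 or SERCA1 protein on immunoblots of GST muscle at the same age.

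Ryr3 encodes a second release channel, which mouse limb muscle expresses mainly around birth (chr2:112631355-113217096, minus strand), and it was the only one of the 10 genes that rose. It counted 37.7, 59.1, 59.6 and 49.1 in WT 1 to WT 4 and 81.7, 115.2, 81.0 and 87.2 in D84G 1 to D84G 4. These values rest on 33 to 55 reads per WT library and 84 to 147 reads per STIM1+/D84G library. The groups did not overlap, and the mean was 51.4 ± 10.3 (SD, n = 4) against 91.3 ± 16.2 (SD, n = 4), a log2 fold change of 0.84 ± 0.18 (SE; limma, adjusted p = 0.00243). Of the exonic length of Ryr3, 4.83% lies opposite exons of Aven, which fell (log2 fold change -0.26 ± 0.07, limma, adjusted p = 0.00807), and whether strand was used in counting is not given in the sources used here.

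The pore of the dihydropyridine receptor and its voltage sensors are formed by CaV1.1, the product of Cacna1s (chr1:136052750-136119822, plus strand). Cacna1s counted 60151, 63613, 64586 and 65944 in WT 1 to WT 4 and 39033, 38602, 38725 and 35958 in D84G 1 to D84G 4. The groups lay far apart, with no STIM1+/D84G library above 39033 and no WT library below 60151. The mean fell from 63573 ± 2474 (SD, n = 4) to 38079 ± 1426 (SD, n = 4), a log2 fold change of -0.74 ± 0.05 (SE; limma, adjusted p = 1.30e-06). An annotated antisense gene, Gm37759, lies opposite 1309 bases of its exons.

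Cacna2d1 encodes the alpha2delta-1 subunit, a mostly extracellular protein bound to the channel (chr5:15934691-16374511, plus strand). It counted 15851, 17615, 15555 and 18383 in WT 1 to WT 4 and 10406, 10804, 9952 and 9855 in D84G 1 to D84G 4, without overlap. The log2 fold change was -0.71 ± 0.06 (SE; limma, adjusted p = 4.14e-06). Cacna2d1 and Cacna1s thus fell to a like extent, to 60.85% and 59.9% of their WT means.

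Cacnb1 encodes the intracellular beta1 subunit, which carries CaV1.1 to the tubule and arranges it opposite RyR1 (chr11:98001508-98023034, minus strand). It counted 6906, 7141, 6504 and 6304 in WT 1 to WT 4 and 7502, 7196, 6599 and 6607 in D84G 1 to D84G 4. The ranges overlapped, and the means were 6714 ± 379 and 6976 ± 449 (SD, n = 4 each). The log2 fold change of 0.05 ± 0.06 (SE) did not pass the test (limma, adjusted p = 0.443), and its 95% interval, -0.07 to 0.18, spans 0.954-fold to 1.131-fold. It passed as higher under 3 other scalings of the libraries. The log2 fold change was 0.23 with quantile normalization (limma, adjusted p = 0.00621) and 0.18 with factors taken without the 50 most abundant genes (limma, adjusted p = 0.0239). It was 0.40 with total-count scaling, which gives every library the same sum of counts (limma, adjusted p = 4.32e-05). In that order, the median over all 15433 genes was -0.07, 0.14 and 0.36 under these scalings. Genes called higher numbered 3112, 5318 and 9479, against 3859 with the deposited scaling.

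Cacng1 encodes the gamma1 subunit, a membrane protein of the same complex that lowers its current (chr11:107703218-107716522, minus strand). It counted 7137, 7928, 6740 and 6095 in WT 1 to WT 4 and 6423, 5403, 5080 and 4736 in D84G 1 to D84G 4. D84G 1 lay above WT 4, so the groups overlapped. The mean fell from 6975 ± 767 to 5411 ± 728 (SD, n = 4 each), a log2 fold change of -0.37 ± 0.10 (SE; limma, adjusted p = 0.00852). The call was lost under the same 3 scalings, with adjusted p = 0.153 (quantile), 0.0626 (without the 50 most abundant genes) and 0.854 (total), and log2 fold changes of -0.18, -0.25 and -0.02.

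Stac3, the adaptor that links the dihydropyridine receptor to the triad and is needed for voltage-driven Ca2+ release (chr10:127501686-127508823, plus strand), fell with narrow spread. It counted 8592, 8960, 8369 and 8133 in WT 1 to WT 4 and 5672, 5961, 5450 and 5301 in D84G 1 to D84G 4. No STIM1+/D84G library reached the WT range. The mean was 8513 ± 352 (SD, n = 4) against 5596 ± 287 (SD, n = 4), a log2 fold change of -0.61 ± 0.05 (SE; limma, adjusted p = 2.74e-06).

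The junctophilins tie the SR to the tubule membrane, and both fell. Jph2 (chr2:163336242-163397993, minus strand) counted 41312, 44330, 36158 and 40678 in WT 1 to WT 4 and 28082, 28231, 24539 and 23154 in D84G 1 to D84G 4. Jph1, the form found mainly in skeletal muscle (chr1:16964560-17097889, minus strand), counted 15109, 18245, 17442 and 16769 in WT 1 to WT 4 and 12800, 13586, 12575 and 12332 in D84G 1 to D84G 4. In neither gene did the groups overlap. The log2 fold changes were -0.65 ± 0.08 for Jph2 (SE; limma, adjusted p = 6.29e-05) and -0.40 ± 0.06 for Jph1 (SE; limma, adjusted p = 2.45e-04). The call for Jph1 was lost with total-count scaling (log2 fold change -0.05, adjusted p = 0.455).

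Trdn, the SR protein that anchors calsequestrin to the release channel (chr10:33080554-33476709, plus strand), counted 39639, 40028, 36873 and 44411 in WT 1 to WT 4. It counted 32170, 29580, 26623 and 24890 in D84G 1 to D84G 4. The groups did not overlap, although D84G 1 was nearest to WT. The mean fell from 40238 ± 3117 (SD, n = 4) to 28316 ± 3217 (SD, n = 4), a log2 fold change of -0.51 ± 0.08 (SE; limma, adjusted p = 4.27e-04), and the call was lost with total-count scaling (log2 fold change -0.16, adjusted p = 0.067).

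Levels of different genes were compared as normalized counts per kilobase of annotated exon. In WT, Ryr1 stood first at 13875 ± 517 per kilobase, followed by Cacna1s at 9706 ± 378, Jph2 at 9546 ± 793, Cacng1 at 5585 ± 614 and Trdn at 4303 ± 333 (SD, n = 4 each). Cacna1s and Jph2 overlapped in WT, as did Jph1 (3380 ± 267) with Stac3 (3348 ± 138) and Cacnb1 (1482 ± 84) with Cacna2d1 (1357 ± 110), while every other neighbouring pair kept its order in all 4 libraries without overlap. In STIM1+/D84G muscle, Ryr1 stood first at 7762 ± 481 per kilobase, Jph2 (6111 ± 600) and Cacna1s (5814 ± 218) overlapped, and Trdn (3028 ± 344) overlapped with Jph1 (2566 ± 109). Cacnb1 (1540 ± 99) was there above Cacna2d1 (826 ± 35) without overlap. Ryr3 was last in both groups, at 2.71 ± 0.54 and 4.81 ± 0.85 per kilobase, so the rise of Ryr3 left it far below Ryr1.

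**Figure D2:**
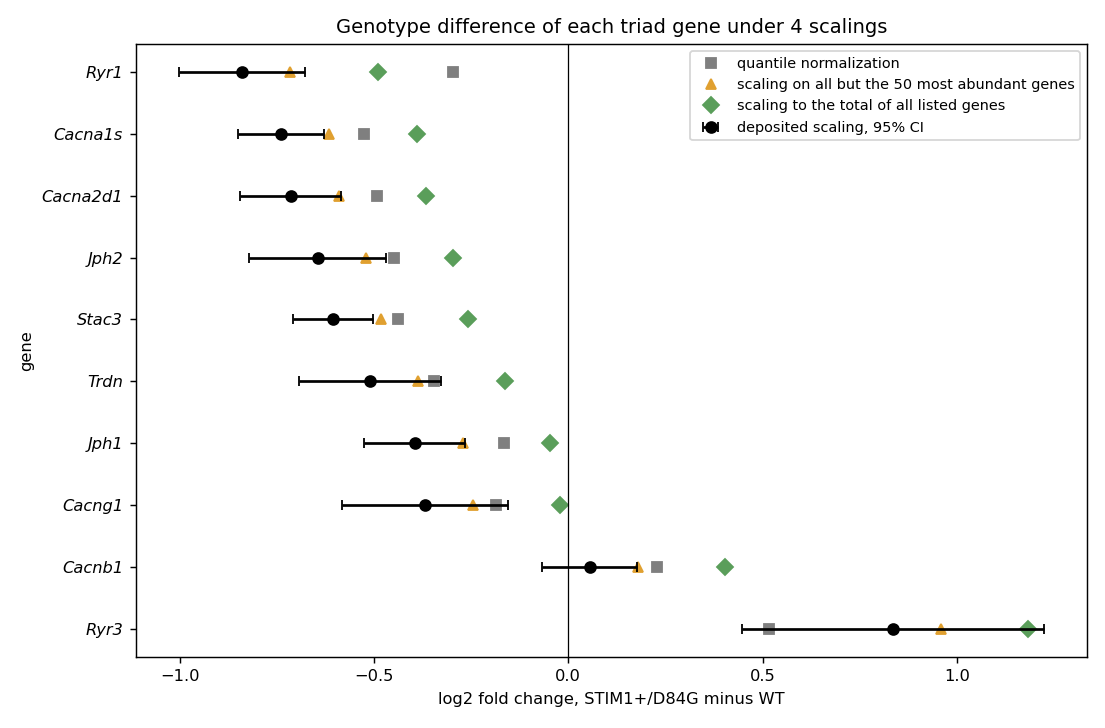
Log2 fold change of each triad gene, STIM1+/D84G minus WT, on the horizontal axis with the genes on the vertical axis. Black points and bars are the deposited scaling with its 95% confidence interval, and the other symbols are 3 other scalings. Ryr3 lies above 0 and Ryr1, Cacna1s, Cacna2d1, Jph2, Stac3, Trdn, Jph1 and Cacng1 below 0 under all 4 scalings, and Cacnb1 lies at 0.05 with the deposited scaling and above it with the others.

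The size of the fall depended on what the libraries were scaled to. Total-count scaling moved the median log2 fold change over the whole table from 0.01 to 0.36, and left 5 triad genes lower (Ryr1, Cacna1s, Cacna2d1, Jph2 and Stac3) and 2 higher (Ryr3 and Cacnb1). Factors taken without the 50 most abundant genes moved it to 0.14, and left 7 lower and 2 higher. The median of the 10 triad genes was -0.21 with total-count scaling and -0.32 with quantile normalization, against -0.56. Ryr1 came to -0.49 with total-count scaling and -0.30 with quantile normalization, where it still passed as lower (adjusted p = 4.61e-05 and 0.00164). Quantile normalization sets genes that keep their rank at the top to the same value in every library. Ryr1 ranked 20 by mean count, so the size of its change there may be held down by this. Cacna1s came to -0.39, Cacna2d1 to -0.37, Jph2 to -0.30 and Stac3 to -0.26 with total-count scaling, and all 4 passed as lower. Ryr3 came to 1.18 with total-count scaling and 0.52 with quantile normalization, and passed as higher under both. Jph1 came to -0.17 with quantile normalization and passed as lower. As shares of all counts, the 10 genes together made up 1.48% ± 0.034 in WT and 1.13% ± 0.039 in STIM1+/D84G libraries (SD, n = 4 each), and Ryr1 alone 0.889% ± 0.022 and 0.633% ± 0.032.

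The triad genes were also set against the summed counts of muscle marker genes of the same library, a comparison that does not depend on the size factor. It was chosen after the values were seen and is given as a description. Per 1000 counts of 6 skeletal muscle markers (Acta1, Ckm, Des, Mb, Ttn and Neb), Ryr1 counted 84.8 ± 1.96 in WT and 68.7 ± 3.24 in STIM1+/D84G muscle (SD, n = 4 each). On that measure Ryr1, Cacna1s, Cacna2d1 and Stac3 were lower in STIM1+/D84G muscle without overlap, Ryr3, Cacnb1 and Jph1 were higher without overlap, and Cacng1, Jph2 and Trdn overlapped. Per 1000 counts of 10 fast fiber markers, which include the fast myosin Myh4 and the fast Ca2+ pump Atp2a1, Ryr1 counted 40.6 ± 1.80 in WT and 40.0 ± 3.76 in STIM1+/D84G muscle, and the groups overlapped. Cacna1s, at 8.52 ± 0.636 and 8.97 ± 0.598, and Cacna2d1, at 2.26 ± 0.204 and 2.41 ± 0.144, overlapped as well. The other 7 triad genes were higher in STIM1+/D84G muscle without overlap on this measure, and none of the 10 was lower without overlap. Both marker sums were themselves lower in STIM1+/D84G muscle, so a gene with an unchanged normalized count comes out higher on either measure. The fast fiber sum was 7162100 to 7786500 in WT and 3865400 to 4703000 in STIM1+/D84G libraries. The share of all genes without overlap on these measures was not computed. Of the 10 fast fiber markers 9 fell by themselves, with a median log2 fold change of -0.62, against -0.56 for the triad genes.

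**Figure D3:**
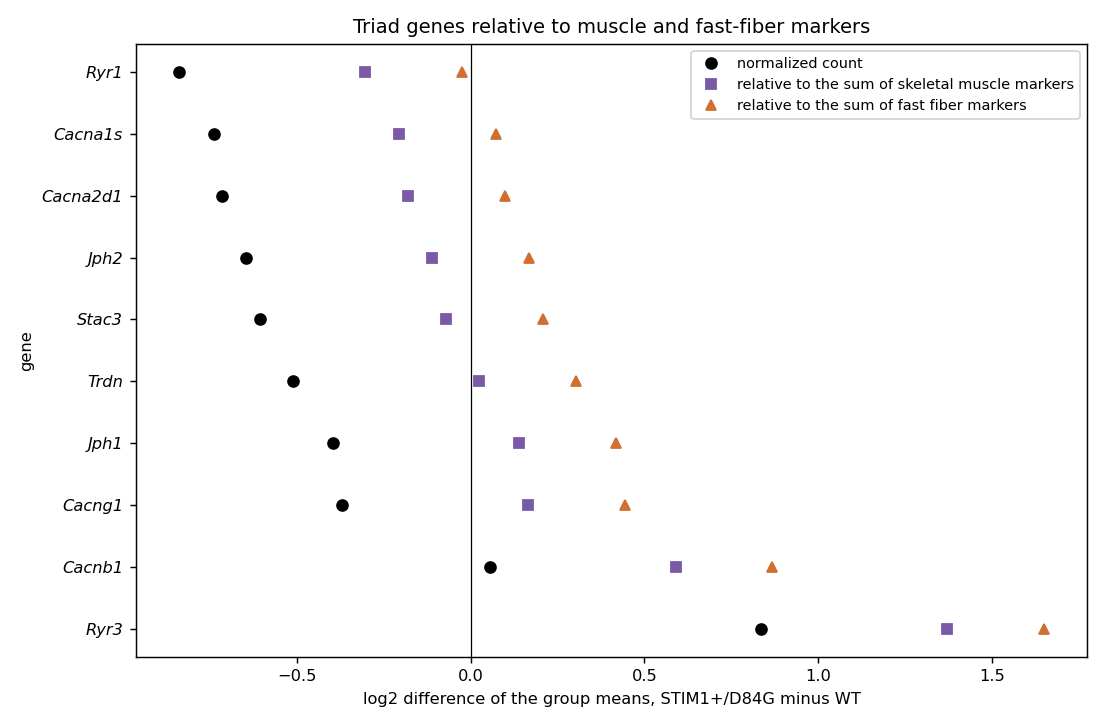
Difference between the mean log2 values of STIM1+/D84G and WT muscle on the horizontal axis for each triad gene on the vertical axis. It is given as normalized count (circles), relative to 6 skeletal muscle markers (squares) and relative to 10 fast fiber markers (triangles). The value of Ryr1 is -0.84, -0.30 and -0.03 in that order, and Ryr3 and Cacnb1 lie above 0 on all 3 measures.

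In whole muscle, fewer cells or fibers of a type and less RNA per fiber cannot be told apart. Several fiber and cell type markers moved between the groups beside the triad genes. Over all genes, 25.0% were higher and 24.4% lower by the same test. Slow fiber markers were higher in 10 of 10 genes, with a sum of 59262 to 83711 counts in WT and 143610 to 217670 in STIM1+/D84G muscle, and fast fiber markers lower in 9 of 10, with a sum of 7162100 to 7786500 and 3865400 to 4703000. The only myosin heavy chain on the fast fiber list is Myh4, so the list does not separate the types of fast fiber. The paper reports a shift of fibers from type IIB to type IIX in STIM1+/D84G mice, by immunofluorescence and RNA. Markers of immature or regenerating fibers were higher in 8 of 9 listed genes (2326 to 2883 and 6256 to 7203), macrophage markers in 9 of 9 listed genes (2537 to 3188 and 6713 to 11617) and fibro-adipogenic progenitor and matrix markers in 7 of 8 (25433 to 35662 and 48234 to 59694). Endothelial markers were lower in 2 of 6 genes (7129 to 8205 and 6102 to 7492), smooth muscle and pericyte markers higher in 1 of 6 (13308 to 14660 and 12397 to 15829), and Schwann cell markers passed in 0 of 6 (2453 to 3154 and 2416 to 3851). Some of these counts depend on the scaling. With total-count scaling, 3 endothelial markers were higher and 0 lower, 5 smooth muscle and pericyte markers and 3 Schwann cell markers were higher and 6 fast fiber markers lower. With quantile normalization, 2 Schwann cell markers were lower, and of the fast fiber markers 1, Mylpf, was higher and 3 were lower. Myh4, Tnnt3 and Atp2a1 cannot be read there, since genes that keep their rank at the top are set to the same value in every library. The slow fiber, immature fiber and macrophage counts were the same under both. No marker was at 0 in any library, and the part of these cells and fibers in the values of the triad genes was not tested.

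Ratios between triad genes within a library do not change when a library is scaled by a single factor. Quantile normalization, which was not applied to them, would change them. The 9 ratios used here were chosen with earlier results of these data known, so their p values are given as descriptions. The ratio of Ryr3 to Ryr1 was 0.000129, 0.000186, 0.000201 and 0.000161 in WT 1 to WT 4 and 0.0005, 0.000638, 0.00046 and 0.000552 in D84G 1 to D84G 4. It was 3.195-fold higher in STIM1+/D84G muscle without overlap (exact permutation test over 70 assignments, 2-sided, p = 0.0286, the smallest p that 4 against 4 allow). The ratio of Cacnb1 to Cacna1s was 0.115, 0.112, 0.101 and 0.0956 in WT 1 to WT 4 and 0.192, 0.186, 0.170 and 0.184 in D84G 1 to D84G 4, or 1.734-fold higher without overlap (exact p = 0.0286).

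Cacng1 relative to Cacna1s (1.292-fold), Jph1 relative to Ryr1 (1.361-fold) and Trdn relative to Ryr1 (1.256-fold) were also higher without overlap, each at exact p = 0.0286. With Benjamini-Hochberg adjustment over the 9 ratios, the exact permutation p of these 5 becomes 0.0514, so none passes 0.05 after adjustment. This test reassigns all 8 libraries freely. With pairs of the same replicate number kept (16 sign changes), the exact p was 0.125, the smallest that 4 pairs allow, for 8 of the 9 ratios, and with reassignment only among libraries that share a number in the column names (30 reassignments) the exact p of the 5 was 0.0333, or 0.0599 after adjustment. Both tests were added after the values were seen. Cacna1s relative to Ryr1, the voltage sensor against the release channel, was 0.210 ± 0.0086 in WT and 0.225 ± 0.0108 in STIM1+/D84G muscle (SD, n = 4 each), with overlap (exact p = 0.114). Cacna2d1 relative to Cacna1s was 0.265 ± 0.0175 and 0.269 ± 0.0099 (exact p = 0.686), Stac3 relative to Cacna1s 0.134 ± 0.0093 and 0.147 ± 0.0057 (exact p = 0.0857), and Jph2 relative to Jph1 2.42 ± 0.270 and 2.03 ± 0.140 (exact p = 0.0857). These 4 ratios overlapped between the groups.

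**Figure D4:**
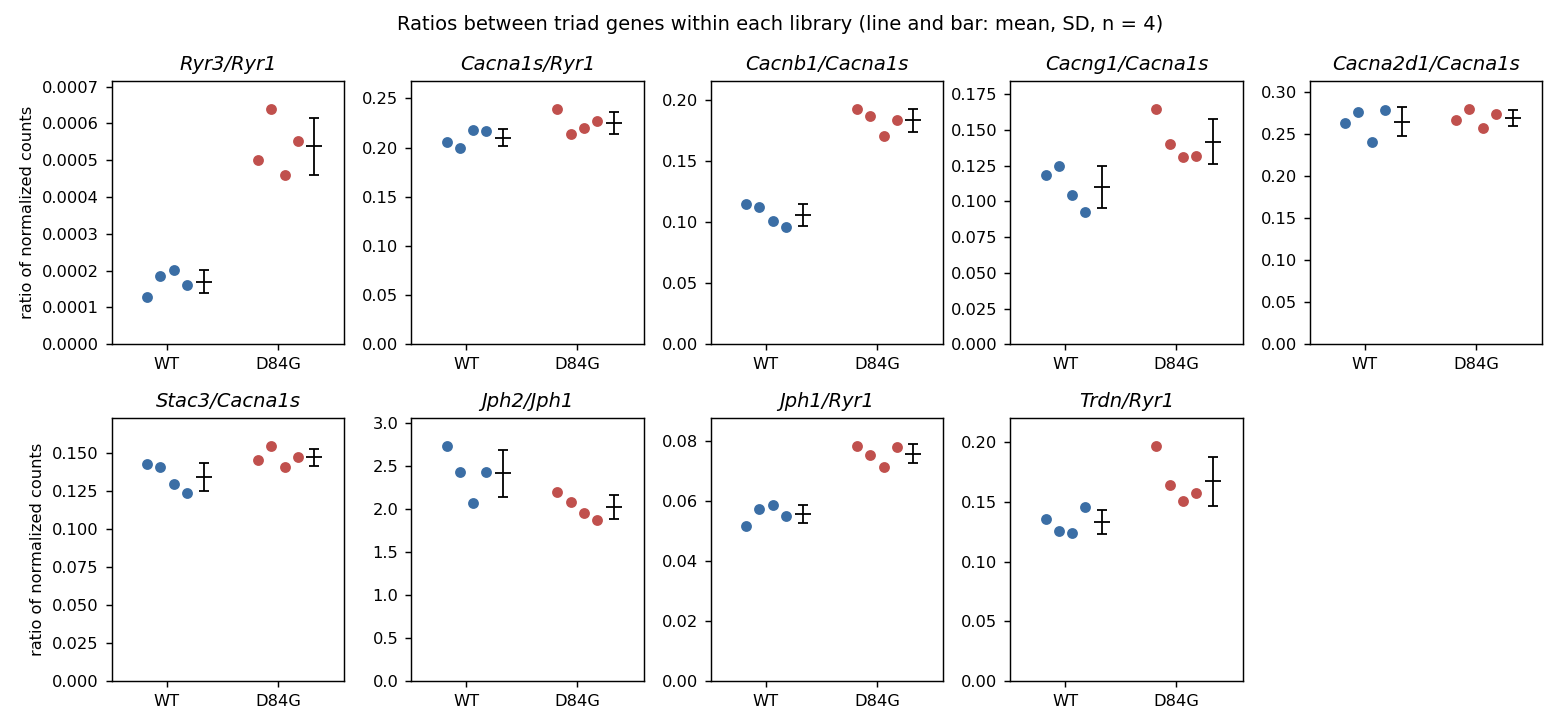
Ratios of normalized counts between triad genes on the vertical axes, which start at 0, by genotype, with 1 point per library and the mean with its SD (n = 4). The groups do not overlap for Ryr3/Ryr1, Cacnb1/Cacna1s, Cacng1/Cacna1s, Jph1/Ryr1 and Trdn/Ryr1, and overlap for the other 4.

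The column names carry 1 of a pair of numbers whose meaning is not stated. WT 1, WT 2 and D84G 1 share the first, and WT 3, WT 4 and D84G 2 to D84G 4 the second. Among the libraries of each number, the difference between the genotypes kept the sign of the pooled difference for all 10 triad genes. Trdn differed by -0.31 on the log2 scale within the first number and by -0.59 within the second, Cacng1 by -0.23 and -0.34, and Ryr1 by -0.90 and -0.81. The ratio of Trdn to Ryr1 was higher by 0.59 on the log2 scale within the first number, which holds a single STIM1+/D84G library, and by 0.23 within the second, and that of Cacna1s to Ryr1 by 0.24 and 0.02. Leaving out any 1 library changed no call among the 10 genes, with the highest adjusted p among those called at 0.0366, for Cacng1 without D84G 4.

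Of 19 further genes of the triad and the junctional SR, 6 were higher, 7 were lower and 6 did not pass, with a median log2 fold change of -0.07. Over all genes, 25.0% were higher and 24.4% lower by the same test. The SR Ca2+ buffers went in opposite directions. Casq1, the fast calsequestrin, fell from 94666 ± 9072 to 59679 ± 6349 (log2 fold change -0.67 ± 0.09, limma, adjusted p = 1.12e-04), and Casq2, the calsequestrin of slow and cardiac muscle, rose from 956 ± 80 to 2268 ± 309 (1.24 ± 0.09, limma, adjusted p = 2.46e-06; SD, n = 4 each). For CASQ1 protein, the paper reports a higher level in STIM1+/D84G muscle beside the lower RNA. The Homer scaffold genes, whose products bind ryanodine receptors, were split as well. Homer1 fell (-0.83 ± 0.06, limma, adjusted p = 1.24e-06), and Homer2 (0.43 ± 0.12, limma, adjusted p = 0.0116) and Homer3 (0.42 ± 0.08, limma, adjusted p = 0.00142) rose. The groups overlapped for Homer2 but not for Homer1 or Homer3. Speg, a kinase of the triad, fell by 0.52 on the log2 scale (SE 0.04).

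The genes of the SR cation channels were split too. Tmem38a, the form of skeletal muscle, fell from 37552 ± 1516 to 29460 ± 1228 (SD, n = 4 each) without overlap (log2 fold change -0.35 ± 0.05, limma, adjusted p = 1.54e-04), a call that was lost with total-count scaling and with quantile normalization. Tmem38b rose from 1956 ± 278 to 2502 ± 199 (0.36 ± 0.09, limma, adjusted p = 0.00652), with overlap of the groups. The genes that did not pass were Bin1, Mtm1 and Cav3, which act in the formation of the tubules, and Jsrp1, Fkbp1b and Dysf. With total-count scaling, 13 of the 19 were higher and 4 lower, with a median of 0.28, whereas Casq2 and the Homer genes kept their directions.

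**Figure D5:**
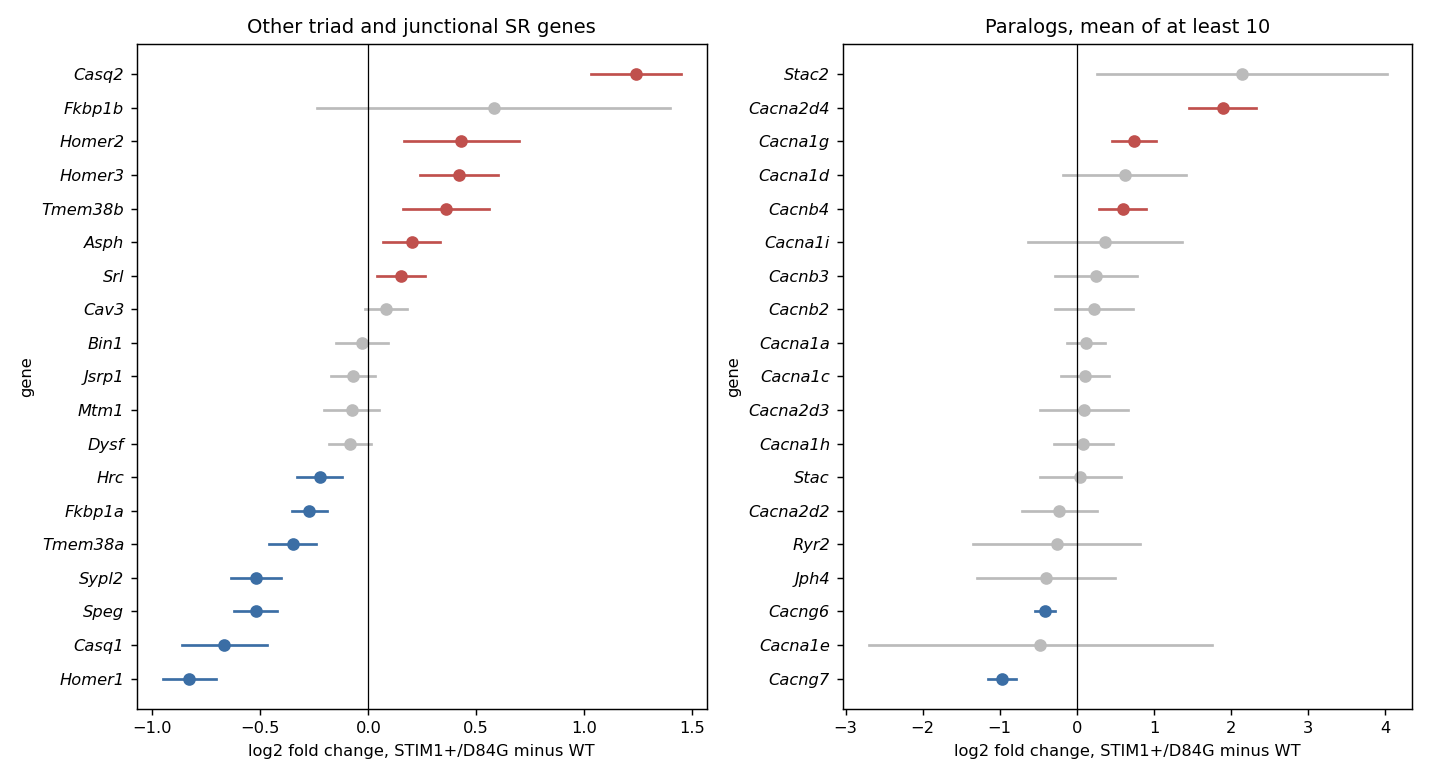
Log2 fold change, STIM1+/D84G minus WT, with its 95% confidence interval on the horizontal axes for 19 other triad and junctional SR genes (left) and the 19 listed paralogs of the triad genes with a mean of at least 10 (right). Red genes rose, blue genes fell and gray genes did not pass the test, with 6, 7 and 6 genes at left and 3, 2 and 14 at right.

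Of 27 paralogs of the triad genes, 23 were listed, 3 rose, 2 fell and 18 did not pass, with a median log2 fold change of 0.10. Over all genes, 25.0% were higher and 24.4% lower by the same test. The counts of paralogs were 8 higher and 1 lower with total-count scaling (median 0.45) and 2 higher and 4 lower with quantile normalization (median -0.27). With the replicate number as a block, 4 were higher and 2 lower, the call gained being Stac2 (2.14, limma, adjusted p = 0.0235). Cacna2d4, a further alpha2delta gene, counted 19.4, 31.3, 27.1 and 31.7 in WT 1 to WT 4 and 77.8, 124.6, 98.3 and 104.8 in D84G 1 to D84G 4. The groups did not overlap, and it was 3.70-fold higher (log2 fold change 1.89 ± 0.20, limma, adjusted p = 1.97e-05), while Cacna2d1 fell. Cacna1g, a T-type Ca2+ channel pore gene, rose from 142 ± 24 to 236 ± 25 (0.74 ± 0.13, limma, adjusted p = 6.46e-04). Cacnb4 rose from 61.5 ± 3.7 to 93.7 ± 14.95 (0.59 ± 0.14, limma, adjusted p = 0.00427), a call that was lost with quantile normalization (0.29, adjusted p = 0.137).

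Both paralogs that fell belong to the gamma family of Cacng1. Cacng6 counted 4140 ± 213 in WT and 3119 ± 238 in STIM1+/D84G muscle (log2 fold change -0.41 ± 0.06, limma, adjusted p = 1.75e-04; -0.06, adjusted p = 0.291, with total-count scaling), and Cacng7 counted 423 ± 34 and 216 ± 20 (-0.97 ± 0.08, limma, adjusted p = 5.65e-06; SD, n = 4 each). Both gamma genes lay below WT in every STIM1+/D84G library, whereas Cacng1 overlapped.

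The genes of the heart-type channels, Ryr2 and Cacna1c, did not pass, although Cacna1c passed as higher with total-count scaling (0.45, adjusted p = 0.0176). Ryr2, the cardiac release channel, counted 18.3, 9.64, 71.6 and 21.5 in WT 1 to WT 4 and 14.98 to 21.21 in STIM1+/D84G libraries (log2 fold change -0.26 ± 0.49, limma, adjusted p = 0.687). WT 3 stood apart in this family: it was highest of the WT libraries for 17 of the 23 paralogs, and at least 2 times every other WT library for 9 (Ryr2, Cacna1d, Cacna1e, Cacna1i, Cacng5, Cacng8, Jph3, Jph4 and Stac2), but for 1 of the 10 triad genes it was highest and for 0 of them at least 2 times the others. Without WT 3, 7 paralogs were higher and 2 lower. The calls gained were Stac2 (3.13, adjusted p = 4.82e-04), Cacna1d (1.03, adjusted p = 0.00344), Cacna1i (0.91, adjusted p = 0.0066) and Cacnb3 (0.52, adjusted p = 0.0189), with log2 fold changes given first.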

How the data were processed

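Poly(A) RNA of GST muscle was sequenced as 50 bp paired-end reads. A Kapa stranded kit is named in the methods and a SMARTer kit in the labels. The authors deposited a table named after RPKM, but its signal values are reads of each gene over a size factor of the library: 100% of values were whole multiples of 1 read (1 read was worth 0.783 to 1.21) within 0.01. The build is mm10; the aligner, the counter and the annotation are not given in the sources used here. The authors' comparison columns (fold, log2 fold, SE, statistic, p value, adjusted p) were not used.

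The test was limma 3.58.1 (trend), run in R 4.3.3, on log2(value + 0.1), without a filter on low values, and fold changes are on that scale, which for low genes departs from the ratio of the means. Alternatives were edgeR 4.0.16 and DESeq2 1.42.0 on the recovered reads, 2 other pseudocounts, a filter on low means, 4 scalings (one by TMM), a replicate block, the number in the column names as a term and leaving out each library. Coordinates and exon lengths come from GENCODE vM21. The procedure was tested on simulated data. The 10 genes, the lists and the ratios were chosen with earlier results of these data known. Genes named are the 10 triad genes, up to 4 per list that passed, by size of change, and paralogs with a mean of at least 10; other genes are named after their values were seen. One gene of the list of other triad genes is not reported here.

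Replicate numbers are shared between the groups. The deviations of same-numbered libraries from their group means, over 10155 genes averaging at least 100 counts, had correlations of 0.213, 0.161, 0.150 and 0.123. Of the 5 pairs with different replicate numbers that share a number in the column names, 3 correlated at 0.371 (WT 2 with D84G 1), 0.222 (WT 4 with D84G 3) and 0.188 (WT 3 with D84G 4), and 2 at -0.018 (WT 3 with D84G 2) and -0.054 (WT 4 with D84G 2). All pairs that share neither number correlated below 0, from -0.069 (WT 1 with D84G 2) to -0.299 (WT 2 with D84G 3). The deviations of a gene within a group sum to 0, so positive correlations of some pairs bring negative ones for others. The main fit has no block, and fits with the replicate block and with the number in the column names were alternatives. Nothing else says that the numbers mark a shared litter or day. Reads in listed genes were 28698738 to 33661535 in WT and 27481177 to 35018732 in STIM1+/D84G libraries. The limma p values set the difference between the genotypes against the spread between these mice, moderated over all genes. The main fit treats the libraries as independent.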

Additional observations from a re-analysis of the deposited data

Results flagged for a closer look

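Cacna1s was flagged in D84G 4, which counted 35958, while the other 3 STIM1+/D84G libraries counted 38602 to 39033. The gap to the nearest library was 0.86 of the range of the group, above the critical value for 4 samples. Of the 20 groups tested, 1 was flagged, and chance flags about 1 in 20. Without D84G 4 the call of Cacna1s as lower was kept.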

How the results depend on the processing

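The 10 triad genes gave 9 calls, 1 higher and 8 lower, and the replicate block gave the same 9, with 1 higher and 8 lower, and 3888 genes higher and 3778 lower over all. The block changed no call among the 10 or the other triad genes. It added Stac2 among the paralogs (4 higher in place of 3) and Mylpf, Myod1 and Mbp among the markers. Over 19 alternatives no value of the 10 changed sign. The scaling of the libraries decided the calls that moved: triad genes called higher came to 2 with quantile normalization, 2 with total-count scaling and 2 with factors taken without the 50 most abundant genes, and those called lower to 5 with total-count scaling. Over all genes, total-count scaling gave 9479 higher and 761 lower, and factors taken without the 50 most abundant genes 5318 higher and 2245 lower, against 3859 higher and 3765 lower. For the other triad genes, total-count scaling gave 13 higher and 4 lower. Leaving out 1 library at a time gave 5 to 6 ratios without overlap, against 5. With total-count scaling 7 of the 10 were called in all, and 10240 genes over the table, against 7624. The ratio of Cacna2d1 to Cacna1s, which overlapped between the groups, turned from 0.03 to -0.02 on the log2 scale without WT replicate 3. Which scaling matches the RNA content of the muscles was not tested. Ryr3 rests on 33 to 147 reads per library, the fewest of the 10 genes.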
